A study of Mus musculus with 37 samples.

Results

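The libraries of Arrest mice that recovered for 7 d were compared with those of Naïve mice, which asks what remains in the ventricle once the acute phase has passed. The comparison used 9 of the 37 heart RNA libraries of the study, 4 of Arrest mice at 7 d and 5 of Naïve mice. Of 56748 genes in the table, 13275 entered it, namely those with at least 0.5 FPKM (fragments per kilobase, a level scaled to gene length and to the total of the library) in at least 4 of these 9 libraries. The mice were male and female C57BL/6J animals aged 8 to 10 weeks. Arrest mice were anaesthetised with isoflurane, intubated and ventilated, and potassium chloride was injected into the left ventricle under ultrasound guidance. After 8 min of asystole they received adrenaline at 15 µg/mL into the ventricle with chest compressions. Adr mice, which the labels call sham, received saline and then the same adrenaline without asystole or compressions. Naïve mice shared only the strain, the age range and the anaesthesia and were neither intubated nor injected, so the comparison holds arrest, adrenaline, ventilation, needle puncture and the recovery days together. The apex was discarded, and RNA came from ventricular tissue. The mice sequenced at 7 d are those that lived to that day, and the hour at which each heart was taken is not given in the sources used here.

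When the circulation stops and is then restored, the heart goes through ischaemia and reperfusion. An acute phase follows in which cardiomyocytes and stromal cells make acute phase proteins and metallothioneins, neutrophils and then monocytes enter, and energy metabolism and contraction are depressed. Macrophages clear the debris, muscle cells recycle damaged organelles by autophagy in their lysosomes, and fibroblasts rebuild the matrix.

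The 9 libraries held between 13.4 M and 28.5 M fragments (M, mega), with Arrest 7 d replicate 4 the deepest and the other 8 at or below 15.7 M. The summed FPKM of 12 ventricular cardiomyocyte genes ranged from 12417 to 16165 in Arrest 7 d and from 13273 to 15839 in Naïve. This sum does not show whether atrial tissue is present: it was 12861 in Arrest 7 d replicate 2, the library with high atrial genes described below. The mitochondrial genome took 26.0% ± 3.38 of fragments in Arrest 7 d (SD, n = 4) and 27.4% ± 2.35 in Naïve (SD, n = 5), and the difference did not pass an exact two-sided permutation test (p = 0.476). The number of genes above 0 did not overlap between the groups, 17252 to 21269 in Arrest 7 d against 13475 to 16925 in Naïve, and the same held at a common depth of 13.4 M fragments, 17216 to 20283 against 13475 to 16920 (exact two-sided permutation test, p = 0.0159). Its part in the gene results was not tested. Read from Xist and the Y-linked genes, Arrest 7 d held 1 male and 3 females, and Naïve held 2 males and 3 females.

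Marker genes of neighbouring tissue set single hearts apart. Arrest 7 d replicate 2 held 157 FPKM of Myl7, the atrial myosin light chain, against 0.751 to 6.17 in the other 8 libraries, and the summed level of 11 atrial genes was 277 there against 32.1 to 64.2 elsewhere. The same library held 64.4 FPKM of Cfd, the fat cell product adipsin, against at most 2.93 elsewhere. Arrest 7 d replicate 1 held 65.5 FPKM of Scgb1a1, a secreted protein of airway club cells, against at most 3.04 elsewhere. Other lung genes were low there, with Sftpc at 0.642, Sftpb at 0.109, Sftpa1 at 0.206 and Ager at 0 FPKM. The source of the Scgb1a1 RNA was not tested. Naïve replicate 5 had the lowest sum over 11 epicardial genes, 19.9 against 41.9 to 106 in the other libraries. In bulk RNA, fewer cells of a type and less RNA per cell cannot be told apart.

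At 7 d the Arrest ventricle was close to the Naïve one. Fitted with limma across all 13275 genes, 3 genes rose and none fell at a Benjamini-Hochberg adjusted p of at most 0.05, which is 0.0226% of the genes tested. None of the 3 is annotated as protein-coding, and 2 of them were listed at 0 in every Naïve library. At an unadjusted p of at most 0.05 stood 598 genes (4.5%), of which 368 (2.77%) were higher in Arrest 7 d and 230 (1.73%) lower. If no gene differed, about 664 would be expected at this threshold. The levels of 231 genes (1.74%) did not overlap between the groups, with 127 (0.957%) higher and 104 (0.783%) lower. Protein-coding genes reached the unadjusted threshold in 465 of 11682 cases (3.98%) and the other gene types in 133 of 1593 (8.35%). The p-values measure the spread between these libraries, which the labels present as separate samples.

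How large a difference these libraries could still hold can be read from the intervals. The log2 difference (Arrest 7 d minus Naïve on log2(FPKM + 1), a scale that understates the change of low genes) had a median of 0.01 over the 13275 genes, with the 10th and 90th percentiles at −0.22 and 0.30. The 95% interval of the difference lay wholly within 2-fold of FPKM + 1 in either direction for 89.5% of genes, and within 1.5-fold for 59.3%. A difference beyond 1 on this log2 scale was measured for 71 genes (0.535%). A low gene can differ by more than 2-fold in FPKM itself without passing 1 on this scale.

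**Figure D1:**
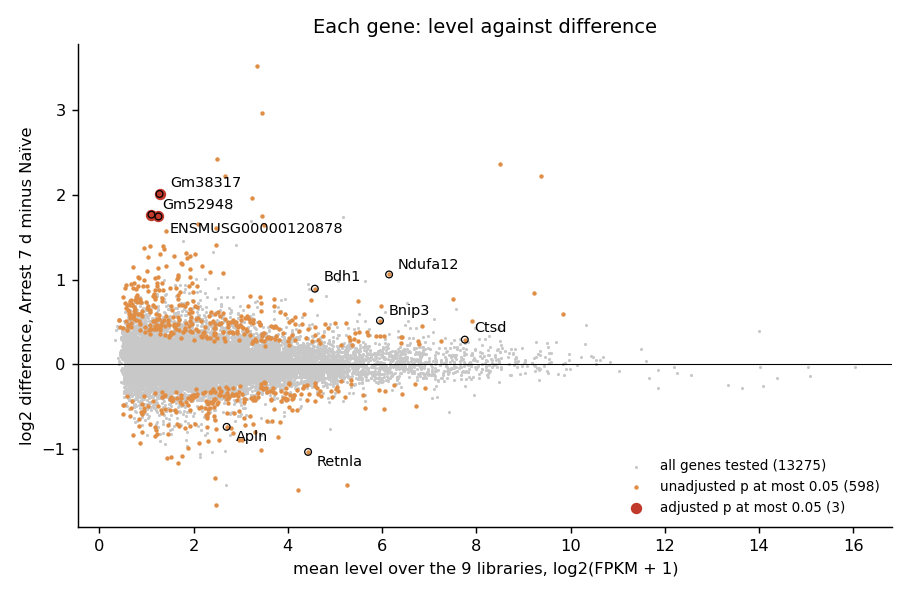
Each point is 1 of the 13275 genes tested, with its mean level over the 9 libraries as log2(FPKM + 1) on the x axis and the log2 difference, Arrest 7 d minus Naïve, on the y axis. Labelled genes carry black rings. The cloud is centred near 0 with a median of 0.01, and the 3 genes past the adjusted threshold (Gm38317, Gm52948 and ENSMUSG00000120878) lie at low levels above it.

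Gm38317, a processed pseudogene, was measured at 3.87, 4.06, 3.45 and 1.39 FPKM in the 4 Arrest 7 d libraries and was listed at 0 in all 5 Naïve libraries. The fitted difference was 2.01 on the log2 scale (95% interval 1.52 to 2.49, limma, adjusted p = 0.0259). This value depends on the pseudocount and is no bound, and the gene passed the filter on low values through the Arrest libraries, so it had to differ. The level rests on 14 to 22 fragments a library. Gm38317 was also above 0 in 26 of the other 28 libraries of the study, with 2.07, 3.38, 7.10 and 1.74 FPKM in Adr at 7 d, so the Naïve libraries were the ones that stood apart.

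A processed pseudogene is a copy of a spliced messenger RNA put back into the genome. Over its 343 bases Gm38317 (GRCm38, chr3:12975359-12975701, plus strand) is identical to the messenger RNA of Itgb5 (chr16:33829665-33949338, plus strand), which encodes integrin β5, at 99.7% of positions. The 1 difference is C314T, with the Itgb5 base first and positions counted from the first base of Gm38317. The last 80 bases of Gm38317 and the matching stretch of Itgb5, from the GENCODE vM21 annotation of GRCm38, are shown to let the near identity be seen, with the differing base in capitals.
Gm38317: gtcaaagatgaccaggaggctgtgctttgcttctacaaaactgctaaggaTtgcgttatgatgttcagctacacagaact
Itgb5: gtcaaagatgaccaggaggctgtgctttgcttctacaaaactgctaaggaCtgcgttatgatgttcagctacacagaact
A fragment that does not cover that position can belong to either gene, so the Gm38317 level is uncertain. Itgb5 itself was measured at 26.6 to 38.9 FPKM in Arrest 7 d and 25.8 to 37.4 in Naïve, which overlap.

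Gm52948, a second processed pseudogene, was measured at 4.59, 2.49, 1.45 and 1.79 FPKM in Arrest 7 d and was listed at 0 in all Naïve libraries, on 6 to 19 fragments (1.77 on the log2 scale, interval 1.27 to 2.26, limma, adjusted p = 0.0428). It too passed the filter through the Arrest libraries. It was above 0 in 14 of the other 28 libraries. ENSMUSG00000120878, a long noncoding RNA with no symbol, was measured at 2.78, 1.72, 4.34 and 2.79 FPKM in Arrest 7 d and at 0, 0, 0.16, 0 and 0.623 in Naïve (1.74, interval 1.25 to 2.24, limma, adjusted p = 0.0428). It also passed the filter through the Arrest libraries, so it is no separate support that every Arrest 7 d library lay above every Naïve library. All of the other 28 libraries were above 0. Of the 24 other settings tried, Gm38317 kept its call in 7, ENSMUSG00000120878 in 4 and Gm52948 in 3.

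The genes of the acute phase were read next at 7 d. They were found in a limma fit of all 37 libraries on 16579 genes, as genes that differ between the Arrest libraries at 7 d and at 1 d or 0.5 d. Between 1 d and 7 d, 312 genes (1.88%) passed an adjusted p of at most 0.05, with 123 (0.742%) higher and 189 (1.14%) lower at 7 d. Between 0.5 d and 7 d, 63 genes (0.38%) passed, 22 (0.133%) higher and 41 (0.247%) lower. Between 3 d and 7 d no gene passed, and 1232 (7.43%) reached 0.05 before adjustment. The 1 d count rests on single libraries: it was 32 without Arrest 1 d replicate 3, 53 without Arrest 1 d replicate 1, 176 without Arrest 1 d replicate 2, between 71 and 125 without any 1 of the 4 Arrest 7 d libraries, and 487 without Arrest 1 d replicate 4. Adr 3 d replicate 3, which is in the model but not in this comparison, had 9.36% of its fragments on the mitochondrial genome against 20.8% or more in every library of the other groups, and without it the count was 654. The 0.5 d count ran from 5 to 84 when 1 library of the groups compared was left out.

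Set against Naïve, these genes lay near their Naïve level. The comparisons share the Arrest 7 d libraries, so the values are given side by side and no test of their relation was made. Of the 189 genes lower at 7 d than at 1 d, 174 were tested against Naïve. Their median difference was −0.79 against Arrest 1 d and −0.03 against Naïve (quartiles −0.13 and 0.08), and 3 were higher and 6 lower than Naïve at an unadjusted p of at most 0.05, a share of 5.17% beside 4.5% of all genes tested. Of the 123 higher at 7 d, 122 were tested, with a median of 0.68 against Arrest 1 d and −0.04 against Naïve (quartiles −0.12 and 0.05), and 2 were higher and 6 lower than Naïve at the unadjusted threshold, a share of 6.56%. None of these 296 genes passed the adjusted threshold against Naïve. The interval of the difference stayed within 2-fold of FPKM + 1 for 166 of the 174 and 119 of the 122. The genes called between 0.5 d and 7 d gave like values, with medians against Naïve of 0.02 for the 22 higher and −0.02 for the 36 tested of those lower.

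**Figure D2:**
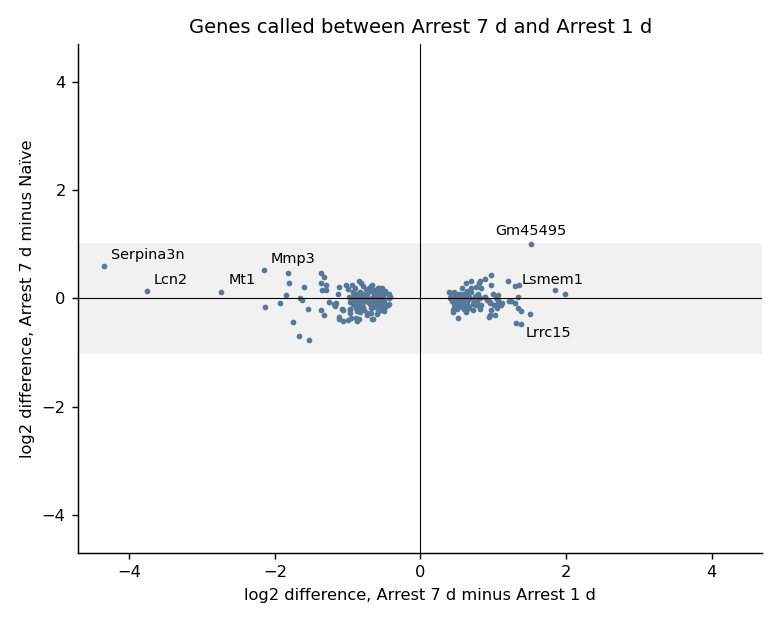
Each point is a gene that differed between Arrest 1 d and Arrest 7 d, with the log2 difference 7 d minus 1 d on the x axis and Arrest 7 d minus Naïve on the y axis. The grey band marks differences of at most 1 on the log2 scale. The genes spread along the x axis but stay around 0 on the y axis, with medians against Naïve of −0.03 for the lower and −0.04 for the higher genes.

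Serpina3n, an acute phase inhibitor of serine proteases, was measured at 218, 164, 183 and 94.7 FPKM at 1 d and at 5.36, 12.7, 8.02 and 3.72 at 7 d. The Naïve libraries held 3.03, 1.49, 4.39, 18.9 and 2.45 FPKM. At 3 d, Arrest replicate 1 still held 114 FPKM and the other 3 libraries 4.89 to 25.2. All 1 d libraries lay above all of those at 7 d, and the 7 d and Naïve ranges overlapped. Serpina3n was lower at 7 d than at 1 d by −4.35 ± 0.929 on the log2 scale (SE, limma, adjusted p = 0.0146), and its difference from Naïve was 0.59 (interval −0.58 to 1.77), so a residue of over 2-fold is inside that interval. Lcn2, the iron-binding protein lipocalin 2, was measured at 56.4, 18.9, 51.2 and 28.6 FPKM at 1 d, at 1.69, 4.05, 0.986 and 0.937 at 7 d, and at 3.09, 1.08, 0.899, 3.42 and 0.227 in Naïve. Its 7 d and Naïve libraries overlapped, with Arrest 7 d replicate 2 above all of Naïve, and it had a difference from 1 d of −3.76 ± 0.785 (SE, limma, adjusted p = 0.0128) and from Naïve of 0.14 (interval −0.77 to 1.04). Without Arrest 7 d replicate 2 the differences from Naïve were 0.32 for Serpina3n and −0.17 for Lcn2. For Serpina3n the Naïve range reached 18.9 FPKM through replicate 4 alone. The next highest Naïve library, at 4.39, lay above only Arrest 7 d replicate 4, at 3.72. With 1 library left out, the difference from Naïve reached an unadjusted p of 0.05 in 1 of 9 fits for Serpina3n and in 0 for Lcn2.

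Mt1, a metallothionein that binds zinc and copper, was measured at 1196, 735, 1556 and 350 FPKM at 1 d and at 123, 103, 147 and 127 at 7 d, against 132, 120, 116, 95.9 and 108 in Naïve. The 7 d and Naïve levels overlapped, and the interval of their difference, −0.14 to 0.39 around 0.12, was narrow. Mmp3, a matrix metalloprotease, had a mean of 23.3 FPKM at 1 d, 4.57 at 7 d and 3.20 in Naïve. Among the other immediate and inflammatory genes lower at 7 d than at 1 d, Junb, a subunit of the AP-1 transcription factor, had means of 47.7 FPKM at 1 d, 10.6 at 7 d and 8.85 in Naïve, Socs3, a feedback inhibitor of cytokine signalling, 10.3, 2.52 and 2.57, and Cebpd, a transcription factor of the acute phase, 35.8, 12.6 and 10.53. These 3 calls were kept in only 1 of 8 fits with 1 library left out, while that of Mt1 was kept in 7, that of Lcn2 in 6 and that of Serpina3n in 5. Tnfrsf1a, a receptor for tumour necrosis factor, had means of 41.1 FPKM at 1 d, 22.5 at 7 d and 17.9 in Naïve, and it was still 0.32 above Naïve at 7 d (interval 0.05 to 0.58, at the unadjusted threshold), or 0.24 without Arrest 7 d replicate 2.

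Of 18 NRF2 antioxidant genes, 2 fell between 1 d and 7 d by the adjusted test, beside 1.14% of all genes, and none rose. Nqo1, a quinone reductase, had means of 68.1 FPKM at 1 d, 29.0 at 7 d and 32.7 in Naïve, and Srxn1, which reactivates peroxiredoxins, 27.1, 9.36 and 7.17. With 1 library left out, the Nqo1 call was kept in 1 of 8 fits and the Srxn1 call in 2. Over the 18 genes the median difference from Naïve at 7 d was 0.00, with 9 above 0 and 9 below.

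In the other direction, Lsmem1, a muscle membrane protein, was measured at 1.205, 1.96, 0.305 and 4.73 FPKM at 1 d, at 10.6, 10.7, 7.32 and 9.76 at 7 d, and between 7.59 and 10.9 in Naïve. Every 7 d library exceeded every 1 d library and overlapped the Naïve range (7 d minus 1 d 1.99 ± 0.416 SE, limma, adjusted p = 0.0128; 7 d minus Naïve 0.07, interval −0.25 to 0.39). Prox1, a transcription factor of lymphatic endothelium and muscle, had means of 4.16 FPKM at 1 d, 7.98 at 7 d and 7.85 in Naïve, and Kdr, a receptor for vascular endothelial growth factor, 12.6, 25.6 and 24.3. Abcc9, a subunit of the ATP-sensitive potassium channel, had 14.4, 31.2 and 33.4, Slc8a1, the sodium-calcium exchanger, 9.16, 15.4 and 14.2, and Nr3c1, the glucocorticoid receptor, 8.31, 12.6 and 13.96. Ighm, the heavy chain of immunoglobulin M, had 2.73, 9.41 and 12.3. With 1 library left out, the Lsmem1 call was kept in 6 of 8 fits. Those of Prox1, Kdr, Abcc9, Nr3c1 and Ighm were kept in only 2, and that of Slc8a1 in 1.

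**Figure D3:**
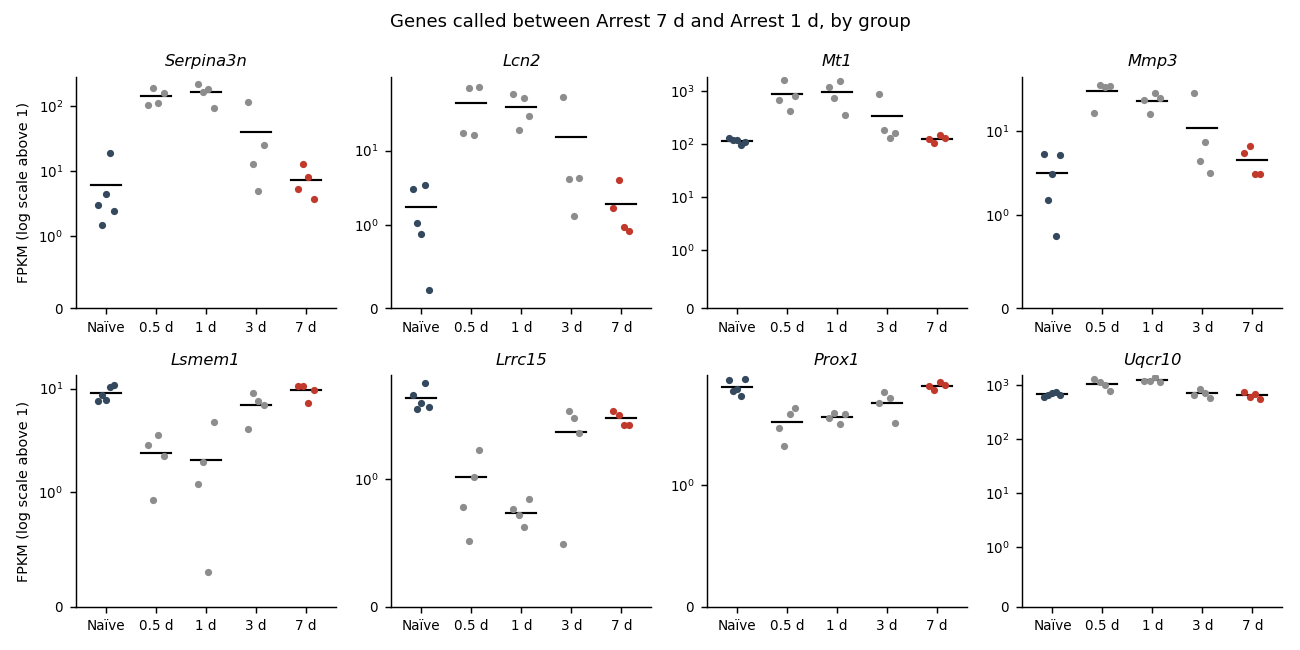
Each panel plots the FPKM of 1 gene by library in Naïve (dark), Arrest at 0.5, 1 and 3 d (grey) and Arrest at 7 d (red), with points for libraries and a line for the mean, on an axis that is linear up to 1 FPKM and logarithmic above. Serpina3n, Lcn2, Mt1 and Mmp3 were high at 1 d and overlapped the Naïve libraries at 7 d, Lsmem1 and Prox1 were low at 1 d and overlapped Naïve at 7 d, and Lrrc15 at 7 d still lay below all Naïve libraries.

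Subunits of the respiratory chain also differed between 1 d and 7 d and lay at the Naïve level at 7 d. Uqcr10, a subunit of complex III, was measured at 1185, 1189, 1424 and 1126 FPKM at 1 d and at 744, 604, 680 and 551 at 7 d, against 589, 645, 698, 740 and 654 in Naïve. The 1 d libraries were the high ones, and 7 d and Naïve overlapped (7 d minus 1 d −0.94 ± 0.198 SE, limma, adjusted p = 0.0143; 7 d minus Naïve −0.05, interval −0.29 to 0.19). Of 36 nuclear subunits of complex I tested, 3 were lower at 7 d than at 1 d by the adjusted test, namely Ndufa11, Ndufa7 and Ndufs4, and of 42 subunits of complexes II to V, 5, namely Uqcr10, Uqcrb, Cox7b, Cox6a1 and Atp5l, beside 1.14% of all genes. With 1 library left out, the calls of Cox7b and Uqcrb were kept in 1 of 8 fits, those of Ndufa11 and Cox6a1 in 3, those of Ndufa7 and Ndufs4 in 4, that of Atp5l in 5 and that of Uqcr10 in 6. The median of both lists was −0.47 against 1 d. Against Naïve the medians were 0.05 and 0.02, with none called, and the 13 genes of the mitochondrial genome had a median of −0.02.

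A few genes of the acute phase had values at 7 d between those of 1 d and Naïve. They belong to a panel of 16 genes that was itself chosen on these libraries, so its members are no independent evidence of direction. Of its 15 members tested, 1 was higher and 3 lower than Naïve at the unadjusted threshold, none passed the adjusted one, and the median was 0.03. Apln encodes apelin, a peptide that dilates vessels and strengthens contraction. It was measured at 0.897, 0.534, 0.442 and 1.55 FPKM at 1 d, at 0.299, 2.30, 4.88 and 4.01 at 3 d, at 4.01, 3.60, 3.47 and 3.50 at 7 d, and at 9.497, 6.10, 6.60, 8.66 and 4.04 in Naïve. All 7 d libraries lay below all Naïve libraries, though the highest at 7 d and the lowest in Naïve nearly touched, and the difference was −0.74 (interval −1.17 to −0.30, limma, adjusted p = 0.857). In Adr at 7 d Apln was at 5.81, 7.02, 6.16 and 5.84 FPKM, above all 4 Arrest 7 d libraries and within the Naïve range (Arrest 7 d minus Adr 7 d −0.63, limma, adjusted p = 1.0).

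Lrrc15, a membrane protein of matrix-producing fibroblasts, was measured at 0.762, 0.719, 0.627 and 0.844 FPKM at 1 d, at 3.89, 3.61, 2.96 and 2.95 at 7 d and at 5.42, 4.03, 4.6, 6.76 and 4.24 in Naïve. It was higher at 7 d than at 1 d (1.32 ± 0.266 SE, limma, adjusted p = 0.0105) and lay below Naïve without overlap (−0.45, interval −0.79 to −0.11, not called after adjustment). The Adr 7 d libraries held 3.42, 3.22, 3.98 and 3.59 FPKM and were also below every Naïve library. Retnla, a secreted product of alternatively activated and resident macrophages, was measured at 6.77, 17.1, 11.7 and 15.3 FPKM in Arrest 7 d and at 21.0, 29.6, 39.1, 27.0 and 17.0 in Naïve, which overlap by 1 library on each side (−1.03, interval −1.64 to −0.43). Adr at 7 d held 13.8, 14.98, 14.5 and 12.1 FPKM. Gngt2, a γ subunit of G proteins, was the panel member that was higher, at 8.999, 7.58, 7.60 and 5.88 FPKM against 2.25, 2.85, 4.54, 1.25 and 5.58 in Naïve (1.08), and Adr 7 d held 4.41 to 9.01. Its mean was 7.39 FPKM in Arrest at 1 d and 7.51 at 7 d, so Gngt2 did not lie between 1 d and Naïve.

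Beside the 3 called genes, the largest differences without overlap between the groups were read among genes at the unadjusted threshold with at least 1 FPKM in either group, leaving out predicted (Gm, Rik), pseudogene, clone and ID names. None of them passed the adjusted test. The 10 largest higher ones were Mnd1, Cdo1, Cenpv, Gngt2, Krtcap3, Bdh1, Mier2, Tmem14a, Pard6a and Ccdc191, with log2 differences from 0.74 to 1.37. The 10 largest lower ones were Glipr2, Cngb3, Lrrc25, Tcf19, Apln, Hsbp1l1, Fbp2, Aim2, Ufsp1 and Slc46a3, from −0.89 to −0.61. Absence of overlap was part of the rule that picked these 20, so it is no support for them. Mnd1, a factor of meiotic recombination, was measured at 1.69, 3.04, 1.27 and 1.76 FPKM in Arrest 7 d and was listed at 0 in 4 Naïve libraries and at 0.68 in the other. Mnd1 passed the filter on low values through the Arrest libraries and had the lowest adjusted p of the 20 (limma, 0.28). Cdo1, which turns cysteine into its sulfinic acid, stood at 1.17, 9.51, 1.80 and 2.31 FPKM, and its difference of 1.27 was 0.78 without Arrest 7 d replicate 2, the library with the atrial and fat genes. Several of the 20 shrank most without Naïve replicate 4, the library with the fewest genes above 0. Cenpv then went from 1.09 to 0.67, Gngt2 from 1.08 to 0.87 and Fbp2 from −0.68 to −0.53, each still at the unadjusted threshold.

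Bdh1, the mitochondrial enzyme that interconverts the ketone bodies β-hydroxybutyrate and acetoacetate, was the most abundant of the higher genes. It was measured at 29.9, 29.9, 36.1 and 26.9 FPKM in Arrest 7 d (mean 30.7 ± 3.88 SD, n = 4) and at 14.02, 10.46, 17.0, 19.2 and 21.5 in Naïve (mean 16.4 ± 4.35 SD, n = 5). The lowest Arrest library was above the highest Naïve one, and the difference was 0.89 (interval 0.49 to 1.30, limma, adjusted p = 0.59). The Adr 7 d libraries held 25.04, 22.3, 30.2 and 29.2 FPKM, also above all Naïve libraries. Fbp2, the muscle form of the gluconeogenic enzyme fructose bisphosphatase, was measured at 9.29, 8.48, 8.35 and 11.8 FPKM in Arrest 7 d against 12.2, 12.5, 15.4, 24.3 and 16.3 in Naïve (−0.68), and Adr 7 d lay between, at 11.2 to 12.3. Aim2, a sensor of cytosolic DNA, had means of 0.358 FPKM in Arrest 7 d and 1.14 in Naïve. It passed the filter on low values through the Naïve libraries, and in Arrest 7 d only replicate 3, at 0.549 FPKM, reached 0.5.

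**Figure D4:**
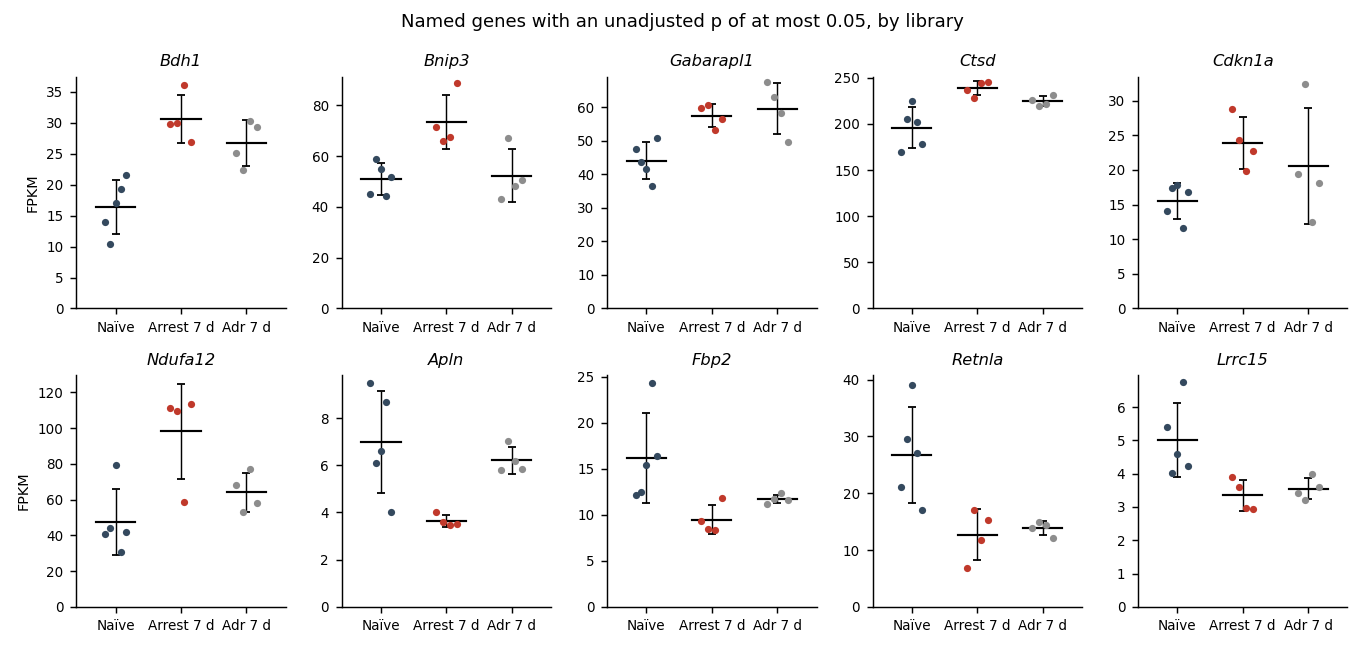
Each panel plots the FPKM of 1 gene by library in Naïve (dark), Arrest 7 d (red) and Adr 7 d (grey), with points for libraries and the mean ± SD. Arrest 7 d and Naïve do not overlap for Bdh1, Bnip3, Gabarapl1, Ctsd, Cdkn1a, Apln, Fbp2 and Lrrc15 and overlap for Ndufa12 and Retnla, and for Bdh1 the Adr 7 d points lie with those of Arrest 7 d.

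Of 20 autophagy and atrophy genes tested, 3 were higher at the unadjusted threshold, beside 2.77% of all genes, and the same 3 did not overlap, beside 0.957%. None passed the adjusted test, and the median over the list was 0.05 against 0.01 over all genes. Bnip3, a receptor that tags mitochondria for autophagy, was measured at 71.5, 65.9, 67.6 and 88.8 FPKM in Arrest 7 d against 45.1, 58.8, 55.0, 44.2 and 52.0 in Naïve (0.52, interval 0.25 to 0.78). At 1 d it had stood at 196, 174, 215 and 66.5 FPKM, and Adr 7 d held 43.3, 67.2, 48.3 and 50.8. Gabarapl1, a protein of the autophagosome membrane, was at 59.8, 60.7, 53.2 and 56.6 FPKM against 47.5, 43.7, 41.6, 36.5 and 50.9 (0.39). Ctsd, the lysosomal protease cathepsin D, was at 237, 229, 244 and 246 FPKM against 170, 205, 225, 202 and 178 (0.29), with 297 to 339 in Arrest at 3 d and 219 to 231 in Adr at 7 d. The summed level of the 20 genes ran from 1217 to 1302 FPKM in Arrest 7 d and from 1014 to 1191 in Naïve.

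Cdkn1a, the cell cycle inhibitor p21, was measured at 28.9, 24.3, 19.9 and 22.7 FPKM in Arrest 7 d against 14.05, 17.4, 17.8, 11.6 and 16.8 in Naïve (0.60, interval 0.27 to 0.92), without overlap. At 1 d it had been at 62.1, 66.7, 111 and 16.6 FPKM. Sesn2, a stress-induced regulator of growth signalling, was at 1.95, 1.53, 1.49 and 1.27 FPKM against 0.772, 0.471, 1.03, 0.444 and 0.449 (0.66), also without overlap. Of 23 endoplasmic reticulum stress genes tested, 19 were above 0, with a median of 0.14 and 1 at the unadjusted threshold. Of 16 heat shock genes 12 were above 0 (median 0.06). Ndufa12, an accessory subunit of complex I, was at 111, 110, 58.4 and 113 FPKM against 40.6, 44.2, 79.2, 30.8 and 41.6 (1.06), with Arrest 7 d replicate 3 inside the Naïve range and Adr 7 d at 52.8 to 77.3. It was the member of its list of 36 that reached the unadjusted threshold.

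The circadian clock list held the highest share of genes at the unadjusted threshold among the lists with at least 10 tested, 8 of 20 beside 4.5% of all genes, with 3 higher and 5 lower and none past the adjusted one. The clock is a loop in which Arntl, paired with Clock or Npas2, drives the Per, Cry and Nr1d genes through E-boxes, the Nr1d repressors act on Arntl and Nfil3 through ROR elements, and Tef, Dbp and Hlf compete with Nfil3 at D-boxes. The levels follow the time of day at which a heart is taken, which is not known here, so time of collection and group cannot be told apart. Arntl was measured at 2.98, 3.46, 2.91 and 2.99 FPKM in Arrest 7 d against 1.78, 1.84, 1.93, 2.23 and 2.67 in Naïve (0.41, interval 0.11 to 0.70), without overlap. Npas2 had means of 1.90 and 1.01 FPKM (0.54) and Nfil3 10.6 and 6.98 (0.52), and both overlapped between the groups.

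On the other arm, Per3, a repressor of the loop, was at 0.683, 0.856, 0.907 and 1.43 FPKM in Arrest 7 d against 1.88, 2.40, 2.47, 1.80 and 1.19 in Naïve (−0.58). Tef was at 7.27, 8.90, 11.8 and 10.1 FPKM against 15.3, 16.3, 16.8, 12.7 and 9.88 (−0.52). Both groups overlapped through Naïve replicate 5, the low one in each case. Wee1, a mitotic kinase under clock control, had means of 2.92 and 4.79 FPKM (−0.58), Nr1d1 15.9 and 20.6 (−0.35) and Nr1d2 14.4 and 18.3 (−0.36). Adr 7 d held Arntl at 3.09 to 4.24, Per3 at 0.515 to 2.005 and Tef at 5.80 to 12.5 FPKM. Over the 20 clock genes 15 were below 0, with a median of −0.14.

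The promoters of 16 clock genes, as 21 windows of 300 bases from 250 before to 50 after the start, were read from the RefSeq table of GRCm38.p6 and searched on both strands for an E-box (CACGTG), a D-box (TTATGTAA) and a ROR element (AGTAGGTCA). A match was found in 5, 1 and 2 of the 21 windows, against 7.15%, 0.938% and 0.192% of all 32851 promoters in the table. The 4 windows below belong to higher genes (Arntl, chr7:113207261-113207560, plus strand, and Nfil3, chr13:52980990-52981289, minus strand, each with a ROR element) and to lower genes (Per3, chr4:151044616-151044915, minus strand, with a pair of D-boxes, and Tef, chr15:81811164-81811463, plus strand, with an E-box). They were picked because they hold a match, to show how these elements lie in a promoter, and capitals mark the matches. The windows of Npas2, Nr1d1 and Nr1d2 and the other window of Arntl held none, while E-boxes were also found in Per1, Cry1 and Bhlhe41, which did not reach the unadjusted threshold.
Arntl: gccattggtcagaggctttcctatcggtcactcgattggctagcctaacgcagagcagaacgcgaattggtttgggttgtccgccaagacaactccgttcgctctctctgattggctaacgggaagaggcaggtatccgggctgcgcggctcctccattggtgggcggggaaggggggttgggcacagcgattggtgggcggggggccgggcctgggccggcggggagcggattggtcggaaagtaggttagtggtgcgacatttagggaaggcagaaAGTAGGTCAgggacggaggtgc
Nfil3: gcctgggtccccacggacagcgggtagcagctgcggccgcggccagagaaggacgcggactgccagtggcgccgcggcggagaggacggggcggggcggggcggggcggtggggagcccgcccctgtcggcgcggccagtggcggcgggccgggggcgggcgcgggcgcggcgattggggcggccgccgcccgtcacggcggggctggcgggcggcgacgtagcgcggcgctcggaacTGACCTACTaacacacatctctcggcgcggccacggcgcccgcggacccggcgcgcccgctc
Per3: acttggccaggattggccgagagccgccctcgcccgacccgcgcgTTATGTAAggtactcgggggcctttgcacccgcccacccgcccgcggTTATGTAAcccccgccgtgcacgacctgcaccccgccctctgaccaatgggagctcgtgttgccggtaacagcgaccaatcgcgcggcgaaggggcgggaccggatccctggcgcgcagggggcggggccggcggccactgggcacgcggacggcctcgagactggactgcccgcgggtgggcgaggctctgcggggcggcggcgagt
Tef: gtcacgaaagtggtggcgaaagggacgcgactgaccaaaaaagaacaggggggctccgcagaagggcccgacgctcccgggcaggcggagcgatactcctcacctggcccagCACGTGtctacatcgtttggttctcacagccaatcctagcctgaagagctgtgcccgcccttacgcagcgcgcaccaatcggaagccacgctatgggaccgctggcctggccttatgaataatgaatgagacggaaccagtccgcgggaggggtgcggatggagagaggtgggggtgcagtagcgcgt
A match describes these letters and is not a site shown to be bound.

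**Figure D5:**
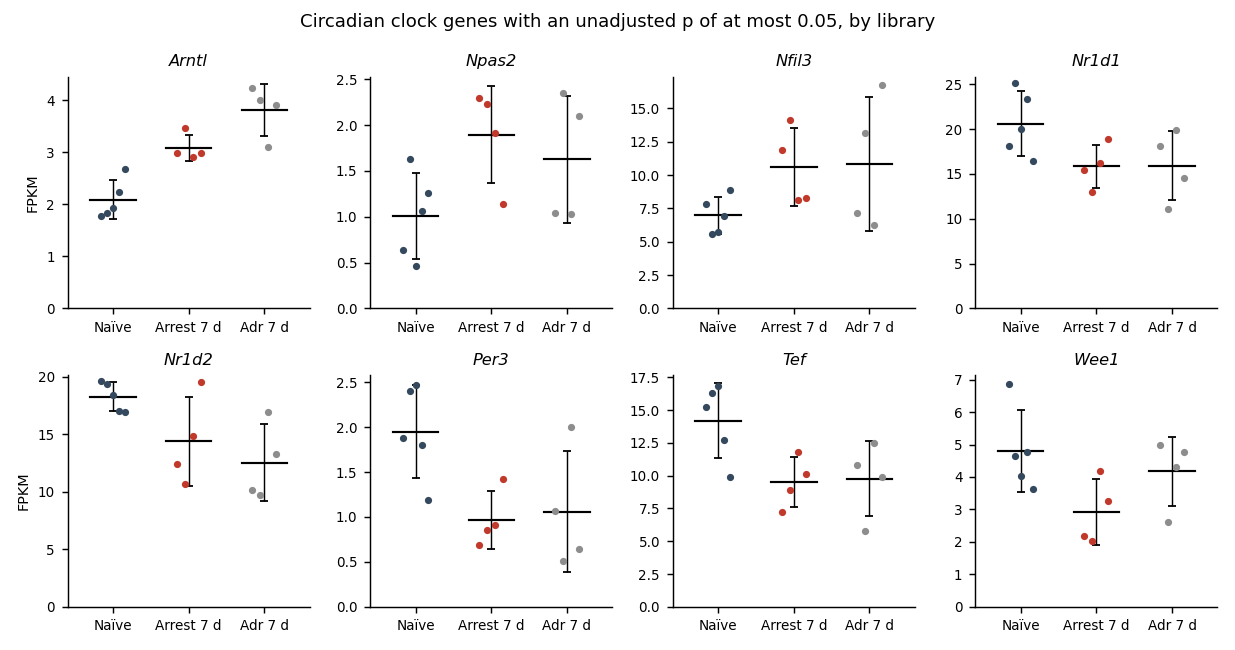
Each panel plots the FPKM of 1 clock gene by library in Naïve (dark), Arrest 7 d (red) and Adr 7 d (grey), with points for libraries and the mean ± SD. Arntl, Npas2 and Nfil3 have higher means in Arrest 7 d than in Naïve, and Nr1d1, Nr1d2, Per3, Tef and Wee1 have lower ones, with overlap between the groups for each of the 8 except Arntl.

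The immune lists held no adjusted call at 7 d. Of the 20 neutrophil genes only 6 passed the filter on low values, and Ly6g, Mmp8, Elane, Trem1 and Stfa2l1, which mark neutrophils and their granules, were listed at 0 in all 9 libraries. Of 18 resident macrophage genes, 14 were below 0 with a median of −0.21, and Retnla and Cx3cr1, the fractalkine receptor (−0.70), reached the unadjusted threshold. The summed level of the list ran from 306 to 441 FPKM in Arrest 7 d and from 356 to 531 in Naïve, which overlap. Of 9 dendritic cell and MHC class II genes tested, 8 were below 0 with a median of −0.21 and none at the unadjusted threshold. The 10 monocyte and inflammatory macrophage genes tested had a median of −0.05.

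Among signalling genes, Ccl8, a monocyte-attracting chemokine, had means of 7.92 FPKM in Arrest 7 d and 1.82 in Naïve, a difference of 1.61 that was 1.22 without Arrest 7 d replicate 2. Ccl9 was lower (−0.67) and Ccl5 higher (0.67), both at the unadjusted threshold. Without Arrest 7 d replicate 2 the Ccl5 difference was 0.49 and no longer reached that threshold. Of 22 interferon response genes 14 were above 0 with a median of 0.09. Irf7, a master regulator of interferon genes (0.43), and Ifit3 (0.57) reached the unadjusted threshold, beside 2.77% of all genes that were higher. Without Arrest 7 d replicate 2 these differences were 0.41 and 0.50, and neither gene reached that threshold. Of 17 complement genes 3 reached it (Cfd, Cfp and C2, all higher), beside 2.77% of all genes. The Cfd difference of 1.96 was 0.86 without Arrest 7 d replicate 2. Those of Cfp and C2, 0.60 and 0.68, were then 0.43 and 0.48, and none of the 3 reached the unadjusted threshold without that library. Igkc, the immunoglobulin κ constant region, had means of 4.16 and 1.72 FPKM (1.13, or 0.82 without Naïve replicate 4). Hp, the haemoglobin-binding acute phase protein haptoglobin, differed by 1.31, and by 0.80 without Arrest 7 d replicate 2.

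The structural lists held no adjusted call and had medians between −0.01 and 0.12. Of 18 fibrillar and basement collagens tested, 9 were above 0 and 9 below, with a median of −0.01, and Col4a2, a basement membrane collagen named after its values were seen (−0.16), was lower without overlap. The 27 matricellular and myofibroblast genes had a median of 0.00, with 2 lower at the unadjusted threshold, namely Thbs1, the matricellular protein thrombospondin 1 (−0.61, interval −1.17 to −0.05), and Aspn, a small proteoglycan (−0.51, interval −0.86 to −0.15). The 17 metalloproteases and inhibitors had a median of 0.00, and Mmp2, a gelatinase, was lower at that threshold (−0.34, interval −0.65 to −0.02). The 25 sarcomere genes had a median of 0.05, and Myh6, the main ventricular myosin of the adult mouse, had means of 1712 and 1614 FPKM. In the list of 19 fetal programme genes, median 0.12, Nppa, atrial natriuretic peptide, differed by 0.80, and by 0.56 without Arrest 7 d replicate 2, and Gata4, a cardiac transcription factor, reached the unadjusted threshold (0.25).

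Metabolic and electrical genes gave like values. Of 19 citric acid cycle genes 17 were below 0, but the median was only −0.05 and none reached the unadjusted threshold. The 28 fatty acid genes had a median of −0.08 and the 25 glycolysis genes −0.04. Calcium handling (20 genes) had −0.05 and ion channels (21 genes) −0.03, where Kcnk3, a background potassium channel (0.33), did not overlap between the groups. Over all lists together, 722 genes were tested and none was called after adjustment. Of these, 49 (6.79%) reached the unadjusted threshold beside 4.5% of all genes, and 14 (1.94%) did not overlap beside 1.74%. The interval stayed within 2-fold of FPKM + 1 for 626 (86.7%). The 44 lists with at least 5 tested genes had medians between −0.23 and 0.27.

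Against Adr mice at the same day, which share the adrenaline and the puncture but not the arrest, 1 of 16579 genes (0.00603%) passed the adjusted threshold and 419 (2.53%) the unadjusted one. Chuk, which encodes the kinase IKKα of the NF-κB pathway, had a mean of 6.98 FPKM in Arrest 7 d (5.87 to 7.42) and 4.14 in Adr 7 d (3.65 to 4.97). It was higher in Arrest 7 d by 0.64 ± 0.113 on the log2 scale (SE, limma, adjusted p = 0.0496), and the groups did not overlap. In Naïve the level was 6.26 FPKM (4.83 to 7.10), which overlapped both groups. The call was lost without Arrest 7 d replicate 1 or 3, without Adr 7 d replicate 1, 2 or 3, and without Adr 3 d replicate 3.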

How the data were processed

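Total RNA of ventricular tissue was sequenced as paired-end reads and aligned with HISAT2 by the authors, who deposited FPKM values for 56748 genes in 37 libraries. The annotation build of the table is not given in the sources used here, and its coordinates were not used. Multiplied by gene length, 100.0% of values gave whole fragments within 0.01 after scaling, so fragments could be recovered for depth. Here, FPKM were tested as log2(FPKM + 1) with limma 3.58.1 (R 4.3.3), with a mean-variance trend and Benjamini-Hochberg adjustment, in 2 models: the 9 libraries of Arrest 7 d and Naïve, and all 37 for comparisons with other groups (16579 genes). DESeq2 and edgeR take counts rather than FPKM and were not run on the recovered fragments, while limma-voom on them was among the alternatives. Intervals are 95% intervals. Python 3.11.15 and scipy 1.17.1 gave exact tests. No pair of libraries in a group agreed within sampling noise. Named genes were those past the adjusted threshold, the 10 largest unadjusted differences in each direction without overlap at 1 FPKM or more, an acute panel, and in each list up to 3 members at an unadjusted p of at most 0.05 or else the 2 most abundant. Genes outside this rule were named after their values were seen. The members and lists were chosen with earlier results of these data known. The limma fit of Arrest 7 d against Naïve was tested on simulated fragments. Alternatives were other pseudocounts, filters, scalings, covariates, models and left-out libraries.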

Additional observations from a re-analysis of the deposited data

Results flagged for a closer look

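In groups of 4 to 10 libraries, 1 end value stood far from the rest of its group in 8 of the 54 groups checked, and chance gives about 1 in 20. In Naïve, the highest value of ENSMUSG00000120878 was 0.623 FPKM and that of Mnd1 was 0.68 FPKM, both in replicate 5, where the other libraries were at or near 0. The highest Naïve value of Slc46a3 was 7.36 FPKM and the lowest Naïve value of Pard6a was 1.255 FPKM. In Arrest 7 d, the highest value of Cdo1 was 9.51 FPKM and that of Tmem14a was 4.96 FPKM. The lowest Naïve library in the number of genes above 0, replicate 4, had 13475, and the deepest Arrest 7 d library held 28.5 M fragments.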

How the results depend on the processing

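The count of genes differing between Arrest 7 d and Naïve, 3 as reported, was 0 in 15 of the 24 alternatives and at most 4 in any, with 231 to 1055 genes at 0.05 before adjustment. It was 0 with no filter on low values (1055 unadjusted), with a mean of at least 1 FPKM (514), with quantile normalization (660), with limma-voom on recovered fragments (548), with sex (639) or the description number (302, a number of unstated meaning) as covariate, with all 37 libraries (852) or 36 without Adr 3 d replicate 3 (986), and with only Arrest 7 d replicates 3 and 4 (231). It was 1 with the gene length trend removed (604) and with sample quality weights (771). With a replicate block it was 0 (600 unadjusted). Same-numbered libraries did not deviate together (correlations −0.055, −0.044, 0.012 and −0.075), so the numbers do not pair the samples. Leaving out 1 library gave 0 to 4: 0 without Arrest 7 d replicate 1 or 2 or Naïve replicate 1, 2 or 4, 1 without Arrest 7 d replicate 3, 2 without Arrest 7 d replicate 4, 3 without Naïve replicate 3 and 4 without Naïve replicate 5. The difference in mitochondrial share ran from −2.65 to −0.12 percentage points (−1.36 as reported). The difference in the correlation of level with gene length, −0.11 as reported (exact permutation p = 0.127), ran from −0.16 to −0.074, and passed at −0.16 (exact permutation p = 0.0357) without Arrest 7 d replicate 4. Without Adr 3 d replicate 3 the counts were 654 against Arrest 1 d, 206 against Arrest 0.5 d and 0 against Adr 7 d (522 unadjusted). Leaving out 1 library, an alternative chosen after seeing the data, gave 32 to 487 against Arrest 1 d (312 as reported), 5 to 84 against Arrest 0.5 d (63) and 0 to 1 against Adr 7 d. Of the 296 genes called against Arrest 1 d and tested against Naïve, 19 kept the call in all 8 such fits, 12 in none, and none changed sign. None of the 23 genes named by size reversed in any alternative. Their groups did not overlap, so leaving out libraries could not have reversed them. The causes were not tested. The study's methods leave out a poor-quality Adr 3 d sample without naming it, so all 4 deposited ones entered the larger model. The libraries hold 4 and 5 mice with 7 residual degrees of freedom, so small differences could not be called.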
